A study of Rattus norvegicus with 12 samples.

Results

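The genes followed here are tied to the reactive astrocyte, and 4 were listed by name: Gfap and Vim for the filament skeleton, Cd44 for the cell surface and Sphk1 for lipid signalling. Of these 4 genes, 3 had a probe named for them in the array annotation used here, with 1 probe each among 22226 probes. No probe carries the name Gfap in that annotation, so Gfap was not analysed here. The members were therefore Vim, Cd44 and Sphk1, each detected on all 12 arrays, among 13793 probes that were tested.

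The tissue was spinal cord at thoracic level from 10-week-old female rats of the Sprague-Dawley strain. The mutant groups were G93A SOD1 rats, which bear a mutated superoxide dismutase gene and serve to model amyotrophic lateral sclerosis, and wild-type (WT) littermates formed the other groups. Cords were taken 30 min, 4 h, 24 h and 7 d after a mild compression spinal cord injury, or 30 min and 4 h after a sham operation. Each of these 6 conditions was measured in 1 pool of RNA from G93A rats and 1 pool from WT rats, which gave 12 pools on 12 Illumina rat arrays. The samples analysed hold no sham pool of 24 h or 7 d, so those injury pools were set against the mean of the 4 sham pools, and both comparisons share these. The sources used here give neither the number of rats in a pool nor the promoter or line of the mutant gene. P-values measure only the spread between pools, which may be technical.

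Astrocytes answer damage in the cord by enlarging, building up intermediate filaments and changing the proteins on their surface, a state called reactive. Vimentin and glial fibrillary acidic protein are the main filament proteins of such cells, and CD44 is a receptor for hyaluronan and osteopontin that links the matrix to the cell cortex. Sphingosine kinase 1 makes sphingosine 1-phosphate, a lipid signal read by receptors on the cell surface. None of these genes is limited to astrocytes: macrophages, fibroblasts and vessel cells also use vimentin and CD44. In bulk tissue, fewer cells of a type and less RNA per cell cannot be told apart.

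Judged from the values, the deposited probe identifiers do not stand beside their own rows, and the identifier column was sorted before use. With that step the median signals over the 12 pools were 4400 for Vim, 172 for Cd44 and 158 for Sphk1, against 17.5, 9.35 and 28.3 with the identifiers as deposited. As a check on the whole array, 6.08% of the values of 1271 odorant and pheromone receptor probes were detected after sorting, against 51.8% as deposited. Of the values of 114 ribosomal and proteasome probes, 90.7% were detected after sorting, against 53.3% as deposited. The pool that stood apart was the WT pool of 30 min after injury, with 41.3% of probes detected against 49.6% to 53.8% in the 11 others. At that condition 1064 probes differed at least 2-fold between the genotypes, against 6 to 116 in the other pairs. The rat Sod1 probe did not separate the genotypes (log2 difference -0.05 ± 0.10 (SE), adjusted p = 0.979). No source used here says whether it reads the mutant transcript, so it checks no label. All 10 neuron markers and all 8 oligodendrocyte markers with a tested probe were detected on 12 arrays, and all 11 markers of resting astrocytes on 10 to 12.

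The promoters of the measured genes are shown because their time courses, given below, differ. Each window runs from 250 bases before to 50 bases after a start site of RefSeq on rat build GRCr8, 5′ to 3′ on the strand of the gene. Capitals mark matches, on either strand, to 3 motifs of factors active after injury: AP-1 (TGANTCA), STAT (TTCNNNGAA) and NF-kB, the last by its degenerate kappa-B consensus. The Vim window lies at chr17:81577011-81577310 on the plus strand, and its capitals hold 2 overlapping NF-kB matches that begin at positions -193 and -192 from the start. The Cd44 window lies at chr3:109699375-109699674 on the minus strand and has no match to any of the 3. Sphk1 has 3 annotated starts, and the first, at chr10:102257163-102257462, also has none. The second lies at chr10:102258004-102258303 with an AP-1 match at the 44th base after the start, and the last at chr10:102258725-102259024 with a STAT match at position -214, both on the plus strand.
Vim: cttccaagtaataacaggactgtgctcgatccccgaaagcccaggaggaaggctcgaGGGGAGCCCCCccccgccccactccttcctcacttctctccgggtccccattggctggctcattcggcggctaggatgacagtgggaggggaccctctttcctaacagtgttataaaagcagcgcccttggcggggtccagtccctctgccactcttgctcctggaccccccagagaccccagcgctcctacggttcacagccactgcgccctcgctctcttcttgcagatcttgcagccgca
Cd44: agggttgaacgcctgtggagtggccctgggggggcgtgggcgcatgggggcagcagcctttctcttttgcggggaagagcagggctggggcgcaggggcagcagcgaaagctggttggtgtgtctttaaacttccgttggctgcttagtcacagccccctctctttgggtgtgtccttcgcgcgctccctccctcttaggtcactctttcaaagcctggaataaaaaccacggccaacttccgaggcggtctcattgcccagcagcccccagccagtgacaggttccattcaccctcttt
Sphk1, second start: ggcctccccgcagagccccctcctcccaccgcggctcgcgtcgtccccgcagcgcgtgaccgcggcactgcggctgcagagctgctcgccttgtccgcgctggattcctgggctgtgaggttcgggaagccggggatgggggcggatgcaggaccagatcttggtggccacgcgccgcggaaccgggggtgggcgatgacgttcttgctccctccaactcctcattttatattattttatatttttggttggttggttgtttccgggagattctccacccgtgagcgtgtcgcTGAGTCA
Sphk1, last start: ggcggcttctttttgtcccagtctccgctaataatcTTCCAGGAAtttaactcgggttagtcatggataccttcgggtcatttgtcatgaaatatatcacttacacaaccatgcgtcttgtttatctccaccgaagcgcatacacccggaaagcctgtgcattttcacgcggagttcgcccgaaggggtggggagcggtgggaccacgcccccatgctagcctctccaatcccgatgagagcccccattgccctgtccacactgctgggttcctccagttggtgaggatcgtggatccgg
Among the windows of this length around 33469 annotated rat starts, 7.33% hold the AP-1 motif, 8.87% the STAT motif and 5.02% the NF-kB motif. A match is a description of the letters and no evidence of binding, and the arrays do not say which Sphk1 start was used.

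A pair of quantities are given for each gene. The deposited signal is the brightness of a probe after background subtraction. The level is its log2 value after normalization across arrays. The lowest level on that scale was 6.35, the median of all probes 6.5 and the highest 14.5, so that log2 differences of genes near the lower end, Cd44 and Sphk1 among them, understate the change in signal.

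Vim, the filament gene, was about 3-fold higher at 24 h and 7 d after injury than in the sham pools, in both genotypes. In G93A pools its level was 12.17, 12.42, 13.35 and 13.23 at 30 min, 4 h, 24 h and 7 d after injury, against 11.74 and 11.87 at 30 min and 4 h after sham surgery. In WT pools it was 11.52, 11.99, 13.50 and 13.72 at the same times after injury, against 11.91 and 12.02 after sham surgery. All 4 pools of 24 h and 7 d lay above the highest of the 4 sham pools, while the pools of 30 min and 4 h lay on both sides of the sham values. On the scale of deposited signals, the pools of 24 h and 7 d had 11060 and 10538 in G93A and 11834 and 14947 in WT, against 3377 to 4164 in the sham pools.

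The difference for Vim was 1.54 ± 0.21 (SE, log2) at 24 h, a 2.91-fold increase with an adjusted p of 0.000839, and 1.59 ± 0.21 at 7 d, a 3.01-fold increase with an adjusted p of 0.000483. Both calls held without each of the 12 pools in turn. At 30 min the difference was 0.02 ± 0.24 (adjusted p = 0.978) and at 4 h 0.25 ± 0.24 (adjusted p = 1), so neither early difference exceeded the spread. Between 24 h and 4 h after injury Vim rose by 1.22 ± 0.24 (adjusted p = 0.012), and between 7 d and 24 h the difference was 0.05 ± 0.24 with a 95% interval of -0.48 to 0.58. The rise between 4 h and 24 h was lost without the WT pool of 4 h or either pool of 24 h, at an adjusted p of up to 0.19. The second deposited set of values, whose scaling is not stated, was scaled here to a common median per array. On each array the set rose linearly with the deposited signals, so it is the same measurement on another scale and no second one. With it the 24 h difference was 1.11 with an adjusted p of 0.0515. In order of mean level ± SD over the 2 genotypes (n = 2 pools), the conditions ran 13.47 ± 0.34 at 7 d, 13.43 ± 0.10 at 24 h, 12.20 ± 0.30 at 4 h, 11.95 ± 0.11 in sham 4 h, 11.84 ± 0.45 at 30 min and 11.82 ± 0.13 in sham 30 min.

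Cd44, the hyaluronan receptor, was higher than sham at 4 h, 24 h and 7 d after injury, and lower at 7 d than at 24 h. In G93A pools its level was 6.89, 8.22, 8.19 and 7.47 at 30 min, 4 h, 24 h and 7 d after injury, against 6.86 and 7.21 after sham surgery. In WT pools it was 6.79, 8.21, 8.54 and 7.62 at these times, against 6.74 and 7.04 after sham surgery. Every pool of 4 h, 24 h and 7 d lay above the highest sham pool, and both pools of 30 min lay inside the sham range. Deposited signals at 4 h and 24 h were 338 and 315 in G93A and 364 and 402 in WT, against 65.4 to 152 in the sham pools.

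The increase in Cd44 over sham was 1.09 ± 0.20 at 4 h (2.13-fold, adjusted p = 0.04), 1.40 ± 0.17 at 24 h (2.64-fold, adjusted p = 0.000489) and 0.58 ± 0.17 at 7 d (1.5-fold, adjusted p = 0.0356). At 30 min the difference was 0.04 ± 0.20 (adjusted p = 0.95). Between 4 h and 30 min after injury it rose by 1.37 ± 0.20 (adjusted p = 0.00438), between 24 h and 4 h the difference was 0.15 ± 0.20 (95% interval -0.29 to 0.59), and between 7 d and 24 h it fell by 0.82 ± 0.20 (adjusted p = 0.0441). The 24 h call and the rise between 30 min and 4 h held without each of the 12 pools in turn. The 4 h call and the fall between 24 h and 7 d were each kept only without either pool of 30 min after injury and were lost without any of the 10 other pools, at an adjusted p of up to 0.662 and 0.464. The 4 h call was also lost without the variance trend (adjusted p = 0.0737), with floored signals (0.128) and with the second deposited set of values (0.996). The 7 d call was lost without either pool of 7 d or any sham pool (adjusted p up to 0.327) and against the sham pools of 4 h alone (0.42, adjusted p = 0.204), and with signals floored in place of the background model its difference was 1.08 (adjusted p = 0.018).

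Sphk1, the kinase, had its highest level at 4 h in both genotypes and was back inside the range of the sham pools, or just above it, at 7 d. In G93A pools the level was 6.76, 9.29, 7.83 and 7.03 at 30 min, 4 h, 24 h and 7 d after injury, against 6.71 and 7.21 after sham surgery. In WT pools it was 7.03, 8.85, 8.53 and 7.39 at these times, against 6.79 and 7.37 after sham surgery. The pools of 4 h and 24 h lay above all 4 sham pools, and those of 30 min lay among them. At 7 d the G93A pool lay inside the sham range and the WT pool just above it. In deposited signals, 4 h after injury gave 676 in G93A and 543 in WT, against 153 and 176 at 4 h after sham surgery.

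The increase in Sphk1 over sham was 1.78 ± 0.25 at 4 h (3.44-fold, adjusted p = 0.0137) and 1.16 ± 0.22 at 24 h (2.24-fold, adjusted p = 0.00482). It was the 15th largest among 9336 named genes at 4 h, where Cd44 was the 77th, and at 24 h Vim was the 107th, Cd44 the 144th and Sphk1 the 236th. At 30 min the difference was 0.15 ± 0.25 (adjusted p = 0.834), and at 7 d it was 0.19 with a 95% interval of -0.29 to 0.67 (adjusted p = 0.6). Between 4 h and 30 min after injury Sphk1 rose by 2.17 ± 0.25 (4.52-fold, adjusted p = 0.00115). The later steps, -0.89 ± 0.25 between 24 h and 4 h and -0.97 ± 0.25 between 7 d and 24 h, missed the threshold at adjusted p = 0.0567 and 0.0578. Without either pool of 30 min after injury both steps passed. The 4 h call was lost without the G93A pool of 4 h or either sham pool of 4 h (adjusted p up to 0.2). It was also lost in 3 of 7 other settings: without the variance trend (adjusted p = 0.0779), with signals floored at 16 (0.126) and with the second deposited set of values (0.996). The 24 h call was lost without the WT pool of 24 h (0.86, adjusted p = 0.136).

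**Figure D1:**
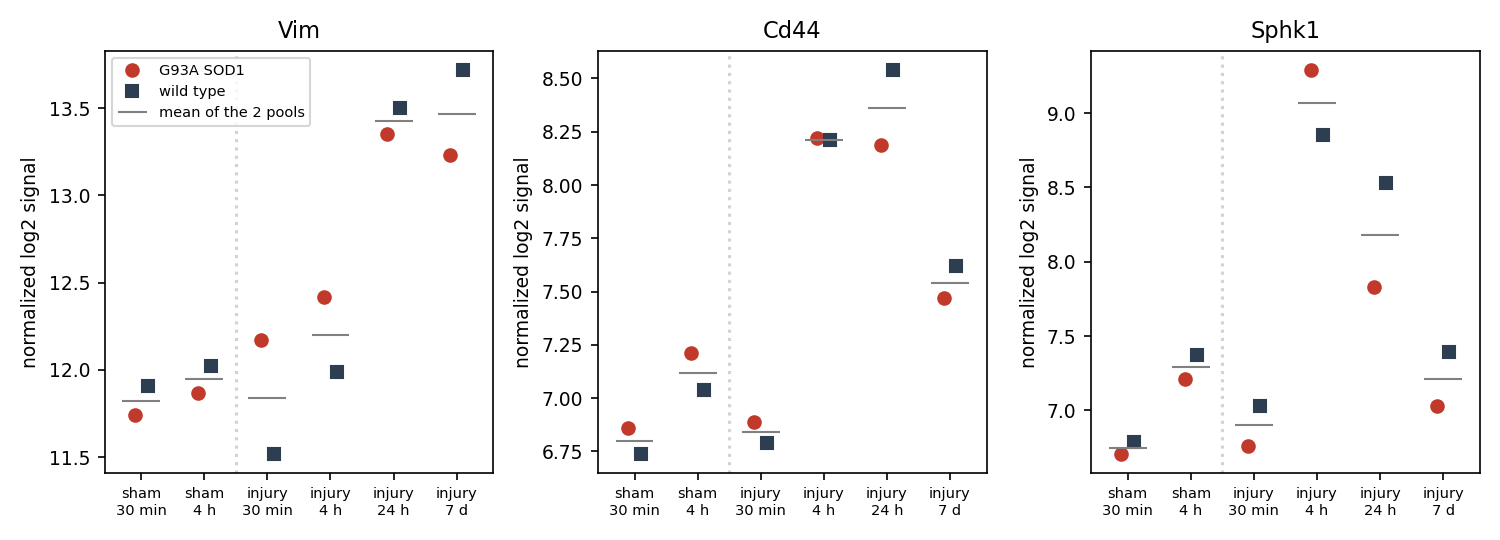
Levels of Vim, Cd44 and Sphk1 in the 12 pools, on the normalized log2 scale (vertical axes differ), by condition from sham surgery to 7 d after injury. Circles are G93A pools, squares are WT pools and the line is the mean of the 2 pools. Vim is high at 24 h and 7 d, Cd44 at 4 h and 24 h, and Sphk1 highest at 4 h.

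Both genes that rose at 4 h also stood higher at 4 h than at 30 min after sham surgery, without passing the test. For Sphk1 the sham difference was 0.54 (unadjusted p = 0.0565, adjusted p = 0.999), and deposited signals were 153 in G93A and 176 in WT at 4 h, against 66.4 and 74.7 at 30 min. For Cd44 it was 0.32 (adjusted p = 0.999), with signals of 152 and 120 at 4 h against 98.8 and 65.4 at 30 min in the same order. For Vim it was 0.12 (adjusted p = 0.999). With signals floored at 16 these sham differences were 1.36 for Sphk1, 0.87 for Cd44 and 0.12 for Vim, none past the threshold (lowest adjusted p 0.521).

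Counted together, 0 of 3 members passed the test at 30 min, where 0.138% of all probes were called higher, and none had an unadjusted p under 0.05 by limma. At 4 h 2 of 3 members rose, against 0.522% of all probes called higher. At 24 h 3 of 3 rose and at 7 d 2 of 3, against 11.4% of all probes at each of these times. Between 4 h and 30 min after injury 2 of 3 rose (1.72% of all probes), and between 24 h and 4 h 1 of 3 rose (5.32%). Between 7 d and 24 h 1 of 3 fell (1.57% of all probes called lower) and 0 of 3 rose (2.96%). Between the sham times 0 of 3 passed, against 0.0508% of all probes, and 0 had an unadjusted p under 0.05. The members were chosen with earlier results of these data known, so these counts beside the shares are descriptions and no test. The same holds for the gene lists below.

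**Figure D2:**
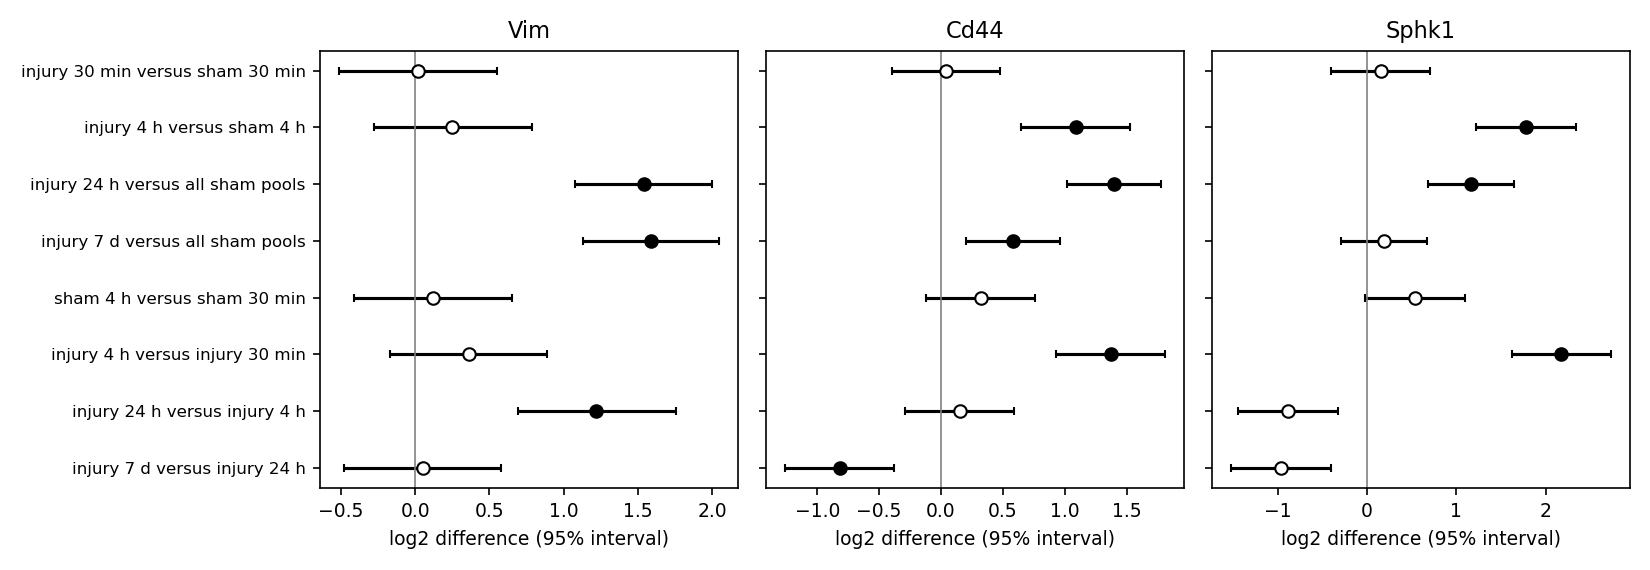
Log2 differences of Vim, Cd44 and Sphk1 in 8 comparisons between conditions, each averaged over the 2 genotypes, with 95% intervals. Filled points passed an adjusted p of 0.05 and open points did not: Vim differs from sham at 24 h and 7 d, Cd44 at 4 h, 24 h and 7 d, and Sphk1 at 4 h and 24 h.

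No member passed the test between G93A and WT over the 6 conditions. With 1 pool per genotype and condition the intervals are wide, and a missed threshold does not show that the genotypes are alike. The G93A minus WT difference in level was 0.02 for Vim (95% interval -0.29 to 0.33, adjusted p = 0.994), -0.02 for Cd44 (-0.27 to 0.24, adjusted p = 0.994) and -0.19 for Sphk1 (-0.51 to 0.13, adjusted p = 0.979). Of all probes, 0% were called, while 185 were higher and 131 lower at an unadjusted p under 0.05, none of them a member. Within single conditions, Vim was higher in G93A by 0.64 at 30 min and 0.43 at 4 h after injury and differed by -0.18, -0.15, -0.15 and -0.48 in sham 30 min, sham 4 h, 24 h and 7 d. The 30 min value rests on the WT pool that stood apart, and without it the Vim difference over conditions was -0.11. Cd44 differed by at most 0.35 in a pair, at 24 h (-0.35), and Sphk1 by 0.43 at 4 h and -0.70 at 24 h.

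Whether the mean injury response differed between the genotypes was tested as an interaction of genotype with injury. It was a single term for 30 min, 4 h, 24 h and 7 d together, so a difference in response at a single time was not tested. Differences of opposite sign can cancel in it, and those of Vim were 0.64 at 30 min and -0.48 at 7 d. The interaction was 0.28 for Vim (-0.38 to 0.93), -0.24 for Cd44 (-0.79 to 0.32) and -0.11 for Sphk1 (-0.83 to 0.62), with adjusted p of 0.948, 0.948 and 0.968. Again 0% of all probes were called, and 197 were higher and 147 lower at an unadjusted p under 0.05, none of them a member. In each genotype alone, the 24 h difference from its own sham pools was 1.55 in G93A and 1.53 in WT for Vim, 1.15 and 1.65 for Cd44, and 0.87 and 1.45 for Sphk1, in the same order. These single-genotype values have no replicate.

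**Figure D3:**
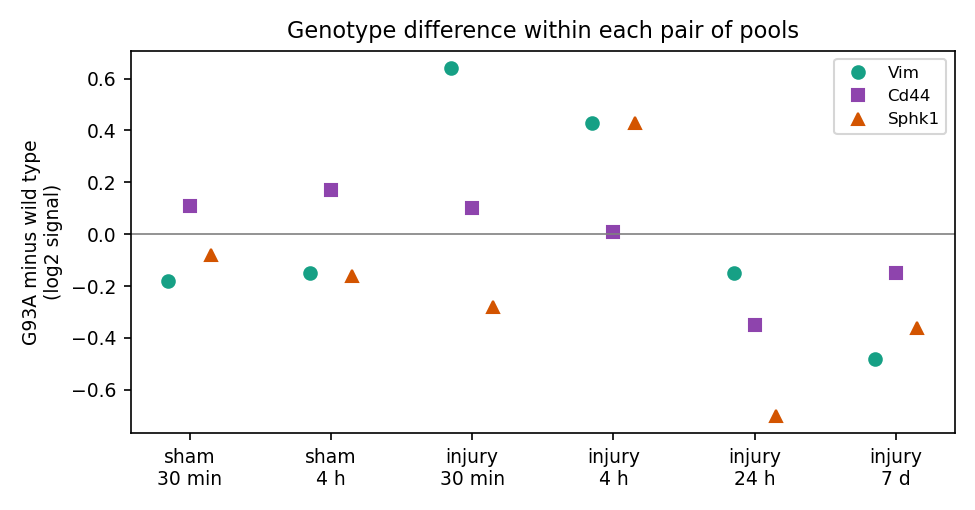
G93A minus WT difference in log2 level of Vim, Cd44 and Sphk1 within each of the 6 pairs of pools. Points lie on both sides of 0, from -0.70 for Sphk1 at 24 h to 0.64 for Vim at 30 min after injury.

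Among other intermediate filament genes and their partners, Nes and Des rose while the neurofilament genes fell. Of 13 tested, 3 rose and 4 fell at 24 h, and 4 rose and 4 fell at 7 d, with a median difference of -0.09 and -0.01 against -0.01 for all probes at both times. Of all probes, 11.4% were called higher at each of these times, and 9.37% and 9.63% lower at 24 h and 7 d. Leaving out each pool gave 2 to 6 that rose and 1 to 6 that fell at 24 h, and 1 to 4 and 1 to 5 at 7 d. Nes (nestin, of progenitors and reactive astrocytes) rose by 1.98 ± 0.21 at 24 h (adjusted p = 0.000236) and 1.45 ± 0.21 at 7 d (0.00084). Des (desmin, of muscle and pericytes) rose by 2.12 ± 0.24 and 1.06 ± 0.24 (adjusted p = 0.000295 and 0.00991). Lmnb2, a lamin of the nuclear envelope, rose at both times, and Krt8, a keratin, at 7 d. The neurofilament genes Nefl, Nefm and Nefh and the related Ina fell at 7 d, with differences of -1.34, -1.48, -2.32 and -1.86 (adjusted p from 0.00152 to 0.00991). At 24 h Padi2, an enzyme that converts arginines of filament and myelin proteins to citrulline, fell by 1.46 (adjusted p = 0.00123). That call held in 12 of 12 fits that each left out 1 pool. Nefh (-1.8, adjusted p = 0.0329), Ina (-1.06, 0.0474) and the keratin gene Krt19 (-0.09, 0.0291), near the bottom of the scale, also fell at 24 h. Their calls held in 7, 4 and 6 of 12 such fits, and in 3 of 8, 3 of 8 and 2 of 7 other settings. At 30 min and 4 h none of the 13 passed.

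Of 14 tested ligands and partners of CD44, 1 rose at 4 h, 6 at 24 h and 5 at 7 d, and 0 fell at any of the 4 times. Their median difference was 0.18 at 24 h and 0.12 at 7 d, against -0.01 for all probes at both times. Called higher were 0.522% of all probes at 4 h and 11.4% at each of 24 h and 7 d. Called lower were 9.37% at 24 h and 9.63% at 7 d. With each pool left out in turn, 0 to 1 rose at 4 h, 4 to 9 at 24 h and 1 to 7 at 7 d, where up to 1 fell. Ezr (ezrin, which ties the tail of CD44 to actin) rose by 1.16 ± 0.19 at 4 h, 1.46 ± 0.17 at 24 h and 0.98 ± 0.17 at 7 d, with adjusted p of 0.0274, 0.000327 and 0.00237. Its level was 0.24 higher at 24 h than at 4 h, which did not pass the test (adjusted p = 0.507). Mmp14, a membrane protease that cuts CD44, rose by 1.83 ± 0.28 at 24 h and 2.33 ± 0.28 at 7 d. Spp1 (osteopontin, a ligand) rose by 1.16 and 0.83, and Hyal2, which breaks down hyaluronan, by 1.41 and 0.60 at these times. The 7 d call of Hyal2 (adjusted p = 0.0455) held in 2 of 12 fits that each left out 1 pool and in 4 of 8 other settings, with differences down to 0.21. Vcan, a hyaluronan-binding proteoglycan, rose by 1.12 at 24 h, and the difference of the protease Mmp9, at 0.23 and 0.14, was small on this scale. By the second deposited set of values, 1 of the 14 rose at each of 24 h and 7 d. The 4 h call of Ezr held in 2 of 12 fits that each left out 1 pool, and its 24 h call in 12 of 12.

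Around Sphk1, of 10 genes of sphingosine 1-phosphate synthesis, breakdown and sensing, 1 rose at 4 h, 3 rose and 1 fell at 24 h, and 2 rose at 7 d. Of all probes, 0.522% were called higher at 4 h, 11.4% higher at 24 h and at 7 d, and 9.37% lower at 24 h. The 1 gene that fell is near that last share, so nothing is read from it for this list. The median difference of the 10 was 0 at 24 h and at 7 d, against -0.01 for all probes. Leaving out each pool gave 0 to 4 of the 10 genes that rose at 24 h and 0 to 3 at 7 d. The gene that rose at 4 h was the receptor S1pr3, by 0.21 ± 0.03 (adjusted p = 0.0212) near the bottom of the scale, where the alternatives gave 0.17 to 1.65, and its call held in 6 of 12 fits that each left out 1 pool and in 2 of 6 other settings. The receptor S1pr2 rose by 1.04 ± 0.23 at 24 h and 1.15 ± 0.23 at 7 d (adjusted p = 0.00978 and 0.00507), and Sgpl1, the lyase that destroys the lipid, by 0.25 and 0.24. S1pr4, a receptor of blood cells, rose by 0.14 at 24 h, and S1pr5, a receptor of oligodendrocytes, fell by 0.73 (adjusted p = 0.0227). Sgpl1 and S1pr4 also lie near the bottom of the scale, and the alternatives gave 0.21 to 1.49 and 0.1 to 1.19 at 24 h. The S1pr5 call held in 7 of 12 fits that each left out 1 pool and in 5 of 8 other settings. None of the 10 was called at 24 h or 7 d with the second deposited set of values.

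Interleukin-6 family and STAT3 genes drive astrocyte reactivity in mice, and of the list drawn up around them only Junb was called at 30 min. The level of Il6 itself at 30 min was 6.47 in G93A and 6.42 in WT after injury, against 6.46 and 6.45 after sham surgery. Of 13 tested, 1 rose at 30 min, 3 at 4 h, 2 at 24 h and 1 at 7 d, and 0 fell. At 30 min and 4 h, 0.138% and 0.522% of all probes were called higher. The counts at 24 h and 7 d are near the 11.4% of all probes called higher then, so nothing is read from them for this list. When 1 pool was left out, 0 to 1 rose at 30 min, 0 to 3 at 4 h, 0 to 3 at 24 h and 1 to 2 at 7 d. Junb, a subunit of AP-1, rose by 2.27 ± 0.21 at 30 min (adjusted p = 0.00293) and 1.15 ± 0.21 at 4 h (0.0417). The cytokine gene Il6 rose by 1.33 ± 0.24 at 4 h (adjusted p = 0.0386), and its level was 8.66 in the G93A pool and 7.60 in the WT pool of 4 h after injury, against 6.75 and 6.84 at 4 h after sham surgery. The 4 h call of Junb held in 2 of 12 fits that each left out 1 pool and in 3 of 7 other settings. That of Il6 held in 4 of 12 and 3 of 6, and the 30 min call of Junb in 10 of 12 and 6 of 7. Socs3, the feedback inhibitor, at the bottom of the scale, rose by 0.26 at 4 h (0.25 to 1.30 under the alternatives). Its call held in 8 of 12 such fits but in 1 of 6 other settings. At 24 h Stat3 rose by 0.78 and the receptor gene Osmr, also at the bottom of the scale, by 0.11. Their calls held in 6 and 10 of 12 such fits, and in 6 of 8 and 3 of 7 other settings. The receptor gene Il6r rose by 0.94 at 7 d, a call that held in 12 of 12 and 7 of 8. With the second deposited set of values none of the 13 was called at 24 h or 7 d, and against the sham pools of 4 h alone none at 24 h.

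**Figure D4:**
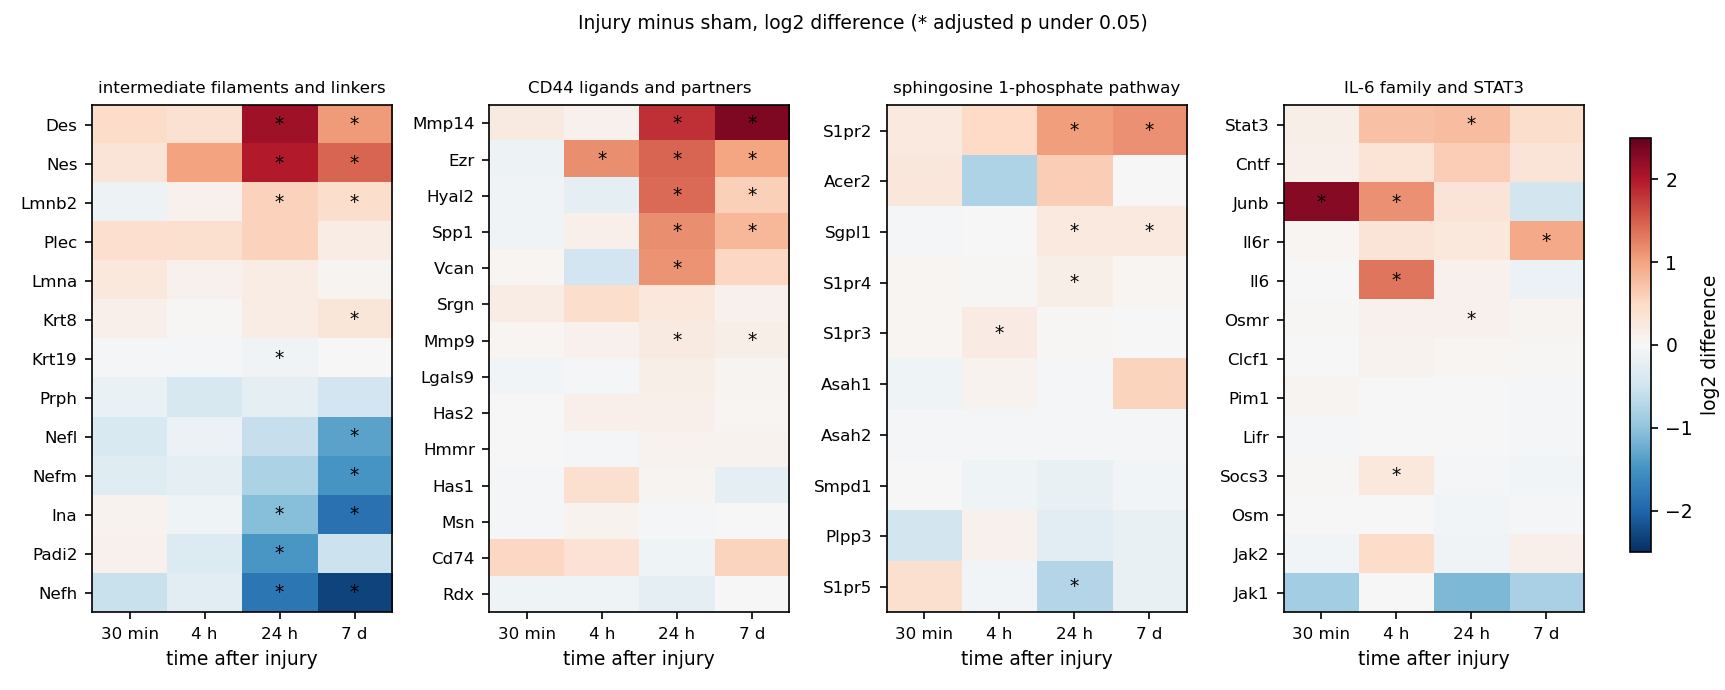
Log2 difference between injury and sham for the tested genes of 4 pathway lists at 30 min, 4 h, 24 h and 7 d after injury, in colour. Stars mark an adjusted p under 0.05: filament genes split into rising Nes and Des and falling neurofilament genes, and CD44 partners are starred in the upward direction alone.

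Markers of several cell types moved at the same times as the members. The shares of all probes called higher were 0.522% at 4 h and 11.4% at each of 24 h and 7 d. Those called lower were 9.37% at 24 h and 9.63% at 7 d. Of 14 other markers of reactive astrocytes, 3 rose at 4 h, 11 at 24 h and 8 at 7 d, and 0 fell. Fits without 1 pool gave 0 to 5, 8 to 12 and 4 to 10 that rose at these times, and the other settings 0 to 4, 6 to 12 and 3 to 10. They include Nes, Osmr and S1pr3 of the lists above. Timp1, a protease inhibitor, and Serping1, an inhibitor of complement, rose by 3.16 and 1.12 at 24 h and by 2.11 and 2.36 at 7 d. Summed over the 14, the linear level above the bottom of the scale was 18386 to 21469 at 4 h after injury against 9305 to 9910 at 4 h after sham surgery, 25887 to 31631 at 24 h and 14306 to 15415 at 7 d. Already in sham pools the sum was higher at 4 h than at 30 min, where it was 3867 to 4107, and Timp1 and Lcn2, an iron-carrier-binding protein named after its value was seen, were called between the sham times (2.84 and 2.94). Both also rose at 4 h after injury, by 1.23 and 1.84, calls that each held in 3 of 12 fits that left out 1 pool. Of 11 markers of resting astrocytes, 7 fell at 24 h and 5 at 7 d, and 2 to 9 and 0 to 6 when each pool was left out. Their median difference was -1.08 at 24 h and -0.16 at 7 d. Among the 7 was a difference of only -0.09, whose call held in 2 of 12 such fits and 2 of 7 other settings. The summed level was 23511 to 25070 at 24 h, and 36088 in G93A and 28576 in WT at 7 d, against 36459 to 40477 in the sham pools. Gjb6, a gap junction gene, and Aqp4, the water channel, fell at 7 d, with differences of -1.73 and -0.90, and the call of Aqp4 held in 7 of 12 such fits.

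At 4 h after injury, where Cd44 and Sphk1 rose, 2 of 7 vessel markers fell, against 0.029% of all probes called lower. These were Cldn5, a tight junction gene, at -1.27 (adjusted p = 0.0484), and Slco1c1, a transporter gene of brain vessels, at -1.63 (adjusted p = 0.0137), both named after their values were seen. The calls held in 2 and 8 of 12 fits that each left out 1 pool. The other vessel markers were not called, with differences from -0.26 to 0, and the median of the 7 was -0.06. Summed over the 7, Cldn5 and Slco1c1 among them, the level was 1625 to 1855 at 4 h after injury against 4336 to 4614 at 4 h after sham surgery. As the other markers changed little, the lower sum mainly repeats these 2 genes and does not describe the vessel markers as a set. At 24 h the vessel sum was 3617 to 4319 with 1 of 7 lower, and at 7 d it was 6226 to 6314 with 2 of 7 higher. Cdh5 was detected on 0 arrays.

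Macrophage and microglia markers rose in 6 of 12 genes at 24 h and 10 of 12 at 7 d (3 to 7 and 10 when each pool was left out), with Cd68, a lysosomal protein, higher by 5.25 at 7 d. Their summed level was 7090 to 7599 at 24 h and 18673 to 22214 at 7 d, against 3119 to 3645 in the 4 sham pools, while at 4 h after injury, where Cd44 and Sphk1 rose, it was 3408 to 3440. Fibroblast markers rose in 3 of 10 genes at 24 h, with 1 that fell, and in 9 of 10 at 7 d (2 to 4 and 5 to 9 that rose when each pool was left out). Their sum was 10947 to 11572 at 24 h and 18535 to 34470 at 7 d, against 6138 to 8166 in the sham pools and 6473 to 7783 at 4 h after injury. Neutrophil markers summed to 545 to 1834 at 4 h and 1232 to 1703 at 24 h after injury, against 75.4 to 654 in the sham pools. Of 9, 0 were called at 4 h and 3 at 24 h, where their median difference was 0.05, and S100a9 was detected on 0 arrays. Neuron markers fell in 5 of 10 genes at 24 h and 9 of 10 at 7 d, and oligodendrocyte markers in 6 and 4 of 8. Leaving out each pool gave 1 to 8 and 3 to 9 neuron markers, and 2 to 8 and 2 to 6 oligodendrocyte markers. Beside these counts, 11.4% of all probes were called higher at each of 24 h and 7 d, and 9.37% and 9.63% lower in that order. The part of these cell types in the differences of Vim, Cd44 and Sphk1 at 4 h, 24 h and 7 d was not tested.

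Over the 12 pools, the levels of Cd44 and Sphk1 followed each other most closely, with a Pearson r of 0.88 and Spearman rho of 0.86. Vim and Cd44 had r = 0.63 and rho = 0.70, and Vim and Sphk1 r = 0.27 and rho = 0.48. These are descriptions over pools that share their conditions and the normalization. Leaving out each pool gave r from 0.86 to 0.90 for Cd44 and Sphk1, 0.54 to 0.76 for Vim and Cd44, and 0.14 to 0.41 for Vim and Sphk1.

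Of 9335 other named genes, those with the pattern most like Vim were Aprt (r = 0.982), Slc66a3 (0.979), Gas7 (0.976), Fn1 (0.976) and Fbln5 (0.975). Fn1 encodes fibronectin and Fbln5 a protein of elastic fibres. Nearest to Cd44 were the phosphatase gene Ptpn2 (0.984), the tubulin gene Tubb6 (0.981), Fbl (0.979), Trim47 (0.975) and the surface receptor gene Cd93 (0.971). Nearest to Sphk1 were Fosl1, a subunit of AP-1 (0.978), Pawr (0.976), Wdr43 (0.975), Zfand2a (0.972) and Pvr (0.972). Without the WT pool of 30 min after injury the r were 0.971 to 0.981, 0.969 to 0.983 and 0.972 to 0.988, but the 5 genes named for Vim ranked 8, 6, 11, 19 and 21, so that none was among the nearest 5. Those named for Cd44 ranked 1, 3, 4, 5 and 11, and those for Sphk1 4, 2, 1, 5 and 8.

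**Figure D5:**
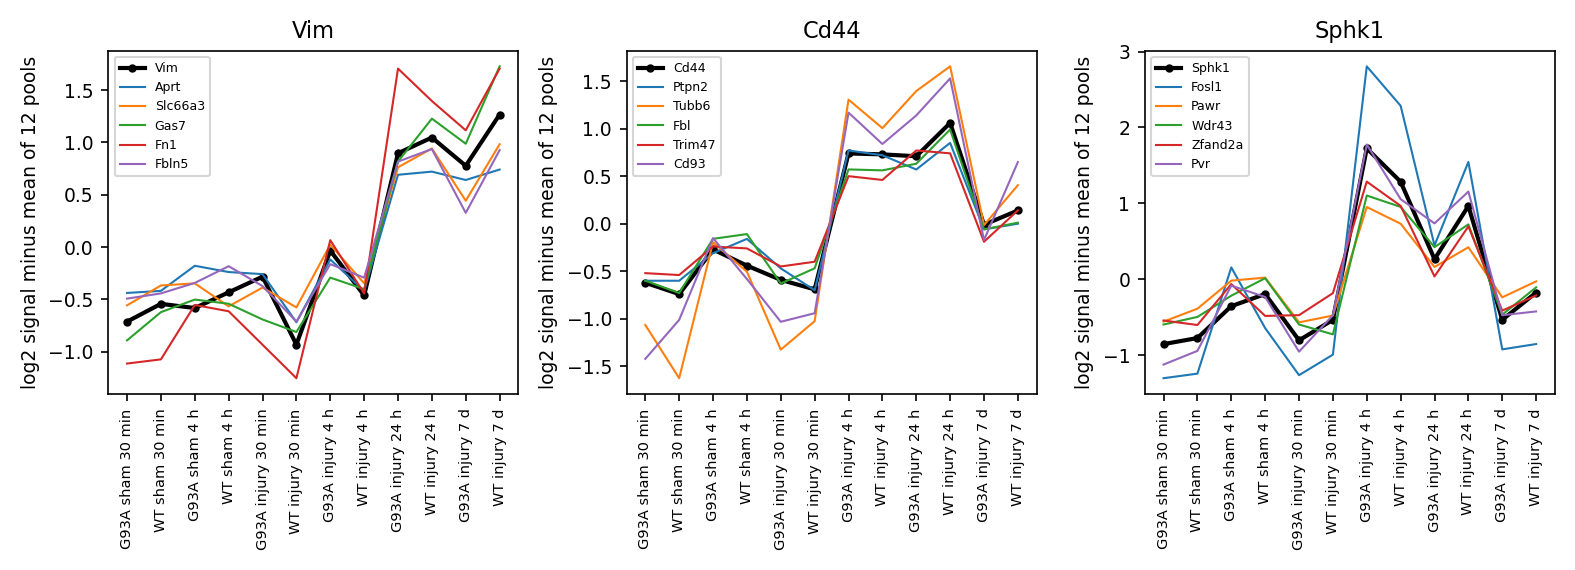
Level of each member (black) and of the 5 named genes with the highest Pearson correlation to it over 12 pools, as log2 signal minus the gene's mean over the pools, with the pools along the horizontal axis. The Vim set is high in the 4 pools of 24 h and 7 d, and the Sphk1 set peaks in the pools of 4 h after injury.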

How the data were processed

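Total RNA of thoracic cord was pooled before labelling, per the labels' protocols. The 12 pools went onto 12 Illumina arrays, and the submitters' processing notes name BeadStudio 3.2.6. The deposited intensity values are background-subtracted bead signals, and a detection p-value is deposited with each, per the file headers. A second set of intensity values that the authors deposited, the series matrix, rose linearly with the signals (slope 0.289 to 0.42 by array), and no source used here says how it was made. For the fits this second set was scaled here to a common median per array, given a floor and taken to log2, without quantile normalization. Identifiers were text-sorted while values stayed in file order, a pairing inferred from the data. The platform annotation names 13192 of 22226 probes.

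limma 3.58.1 under R 4.3.3 was used. Its neqc function modelled the background from detection p, added an offset of 16, quantile normalized and took log2. The 13793 probes with a detection p under 0.05 on at least 2 arrays were tested. A linear model held the 6 conditions and genotype, with eBayes and a variance trend, which left 5 residual degrees of freedom, and 4 once the interaction was added. Because every genotype and condition is a single pool, error was estimated from how far the G93A minus WT difference varied among conditions. Adjustment was by the method of Benjamini and Hochberg, per comparison over all tested probes, at a threshold of 0.05. The number of arrays limits the precision. Fits were tested on simulated data.

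The members and gene lists were chosen with earlier results of these data known. Named were the members, the 5 genes most correlated with each, any gene of the 4 pathway lists, up to 4 genes of a marker list by adjusted p at 7 d, and Sod1. Alternatives were the background model, the series matrix values, the variance trend, the detection filter, the genotype term, the sham reference and leaving out each pool. Signals floored at 16 were added after seeing the data. T and B lymphocyte, ependymal, Schwann cell and muscle markers had at most 1 call in either direction at 4 h, 24 h or 7 d.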

Additional observations from a re-analysis of the deposited data

Results flagged for a closer look

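In 4 comparisons a member moved in opposite directions in the genotypes, with 1 pool on each side, and these single differences were not tested. Vim differed from sham at 30 min by 0.43 in G93A and -0.39 in WT, and at 4 h by 0.54 in G93A and -0.04 in WT. Between 7 d and 24 h after injury Vim differed by -0.12 in G93A and 0.22 in WT. Cd44 differed between 24 h and 4 h by -0.03 in G93A and 0.33 in WT. In the tests over both genotypes none of these 4 comparisons was called for the gene named. The 30 min value of WT comes from the pool with 41.3% of probes detected, and its part in the difference was not tested.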

How the results depend on the processing

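Of 570 member values under the alternatives, 482 kept their direction and side of the threshold, 50 lost a call, 11 gained one and 27 changed sign. Most of the 570 belong to differences not called in the main fit, which had no call to lose, so 570 is not the base for the lost calls. The number of members called at 4 h against sham was 2, and was 0 with the series matrix values, without the variance trend and with signals floored at 16. At 24 h it was 3, and 1 with the series matrix values. At 7 d it was 2, and 1 with the series matrix values or the sham pools of 4 h alone. Between 4 h and 30 min after injury it was 2, and 1 with the series matrix values. Between 24 h and 4 h and between 7 d and 24 h it was 1 each, 0 with the series matrix values or floored signals and 2 with no detection filter or only probes detected on all arrays. The first was also 0 without the variance trend and the second 0 without the background model. Leaving out each pool gave 0 to 2 at 4 h, 2 to 3 at 24 h, 1 to 2 at 7 d, 2 to 3 between 4 h and 30 min, and 0 to 2 for both later steps. The cause of these shifts was not tested. The fit pairs the 2 genotypes by condition, and no further block could be added because the labels give each genotype and condition 1 pool.

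Sign changes touched values that were not called. With the series matrix values Vim was -0.12 at 4 h against sham, -0.16 between 4 h and 30 min, -0.15 between genotypes and -0.1 in the interaction, and Cd44 was -0.15 between 24 h and 4 h and 0.02 between genotypes. Cd44 between genotypes was 0.04 without the background model and 0.1 with floored signals. Sphk1 at 7 d was -0.08 against the sham pools of 4 h. Leaving out each pool, Vim ranged from -0.35 to 0.39 at 30 min, -0.02 to 0.73 between 4 h and 30 min, -0.25 to 0.35 between 7 d and 24 h and -0.11 to 0.12 between genotypes, Cd44 from -0.04 to 0.12 at 30 min, -0.05 to 0.35 between 24 h and 4 h and -0.05 to 0.05 between genotypes, and Sphk1 from -0.33 to 0.05 in the interaction.

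With the series matrix values as scaled here, the median log2 difference of all tested probes was up to 0.29 in size. The deposited array medians on which that scaling rests ran from 6.27 to 11.7, and the part of the scaling in the lost calls was not tested. Over all probes the series matrix values called 0 at 4 h, 833 at 24 h and 776 at 7 d, against 76, 2870 and 2899. At 24 h 182 of theirs were higher and 651 lower, against 1578 and 1292, and at 7 d 331 and 445, against 1571 and 1328. They called 0 at 30 min, 3 between the sham times, 67 between 4 h and 30 min, 17 between 24 h and 4 h and 25 between 7 d and 24 h, against 19, 7, 298, 1108 and 624. Of the 67, 56 were higher and 11 lower, against 237 and 61. Of the 17, 7 were higher and 10 lower, against 734 and 374, and of the 25, 20 and 5, against 408 and 216. Without the variance trend 6, 14 and 4 probes were called at 30 min, at 4 h and between the sham times. Floored signals gave 39 at 4 h, 11 between the sham times and 398 between 7 d and 24 h, and probes detected on all arrays 49 at 4 h. Between the sham times 19 were called without the background model and 4 without the filter. With the sham pools of 4 h alone 1532 were called at 24 h and 1902 at 7 d. Without the WT pool of 30 min after injury, 9 of the 14 CD44 partners rose at 24 h and 7 at 7 d, with 1 that fell at 7 d, and 6 of the 13 filament genes rose and 6 fell at 24 h.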
